A study of Mus musculus with 2 samples.

Results

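Dazl, Ddx4, Nanos3, Sycp3, Tex19.1, Stk31 and Slc25a31 are mouse germline genes described as sensitive to promoter DNA methylation. They were chosen by name, and all 7 were found once each by symbol among the 32285 genes of the count matrices. The cells were embryonic stem cells of the inbred strain C3H/HeSn-Paf/J, from 9 independently derived lines: 3 XX, 3 XO and 3 XY. All 9 lines were pooled, grown on gelatin and irradiated embryonic fibroblast feeders in serum with leukaemia inhibitory factor, and captured once at an early passage (time 1) and once after 10 further passages (time 2). Both time points thus share the strain, the karyotypes, the medium and the feeders. Single cells were read with droplet 3′ sequencing, which counts unique molecular identifiers (UMIs), 1 per captured transcript. The tag libraries were not used here, so no cell could be given a line or karyotype, and 1 library stood for each time. No test between times was therefore possible. Intervals below are exact 95% intervals that cover counting error only, and cells are not replicates.

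In somatic cells and in the epiblast after implantation, germline genes of this kind are kept silent by methylation of CpG-rich promoters. Repression also involves the PRC1.6 complex, which is brought to such promoters by E2F6 and by the Mga and Max pair, and which acts with histone H3 lysine 9 methylation. Primordial germ cells erase the methylation and switch the genes on, and mouse embryonic stem cells with low methylation carry their transcripts. Stem cells with 2 active X chromosomes are known for lower global DNA methylation than XY or XO cells. Methylation was not measured in these libraries, and only RNA is described.

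The promoters were read from the RefSeq table for GRCm38.p6, as the 250 bases before the annotated start, and all 7 members matched. The printed windows show how far the members differ in the feature that names them, CpG density, and capitals mark every CG. The windows of 5 members are shown, read 5′ to 3′ in the direction of the gene. The printed windows lie outside the member's own annotated gene span in GENCODE M21, except that of Nanos3. The Nanos3 window lies inside its gene span, 84173731 to 84185217, and overlap with exons was not examined. Bases of the 250 that fall inside the annotated gene are left off for Dazl and Slc25a31.
Dazl promoter, chr17:50293637-50293870, minus strand: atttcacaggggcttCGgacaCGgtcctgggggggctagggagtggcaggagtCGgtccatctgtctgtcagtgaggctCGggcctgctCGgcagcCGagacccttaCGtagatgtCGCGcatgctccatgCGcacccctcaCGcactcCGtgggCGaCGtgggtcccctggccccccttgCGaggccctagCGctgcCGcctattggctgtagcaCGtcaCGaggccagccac
Stk31 promoter, chr6:49395289-49395538, plus strand: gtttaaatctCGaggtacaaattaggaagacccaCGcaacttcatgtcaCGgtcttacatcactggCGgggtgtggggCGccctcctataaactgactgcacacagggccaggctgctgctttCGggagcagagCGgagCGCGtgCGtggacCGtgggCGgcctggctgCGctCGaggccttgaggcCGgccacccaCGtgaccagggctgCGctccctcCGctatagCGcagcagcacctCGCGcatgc
Slc25a31 promoter, chr3:40708621-40708854, plus strand: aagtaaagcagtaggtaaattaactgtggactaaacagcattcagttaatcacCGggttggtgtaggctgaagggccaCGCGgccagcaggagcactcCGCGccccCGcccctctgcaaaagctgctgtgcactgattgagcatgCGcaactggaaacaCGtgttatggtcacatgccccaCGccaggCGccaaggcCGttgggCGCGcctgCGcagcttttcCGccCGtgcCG
Tex19.1 promoter, chr11:121145893-121146142, plus strand: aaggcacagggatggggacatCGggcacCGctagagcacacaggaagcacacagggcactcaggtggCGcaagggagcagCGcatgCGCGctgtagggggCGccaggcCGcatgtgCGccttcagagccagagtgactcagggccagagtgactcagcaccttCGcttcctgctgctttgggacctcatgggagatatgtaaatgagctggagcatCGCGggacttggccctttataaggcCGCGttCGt
Nanos3 promoter, chr8:84176553-84176802, minus strand: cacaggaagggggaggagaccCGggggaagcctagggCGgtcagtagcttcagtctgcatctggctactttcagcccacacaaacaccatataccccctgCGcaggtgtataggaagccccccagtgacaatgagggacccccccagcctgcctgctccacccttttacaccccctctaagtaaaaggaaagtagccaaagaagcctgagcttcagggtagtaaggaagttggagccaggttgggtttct

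In the full 250 bases the CG count was 31 for Ddx4, 21 for Stk31, 20 for Dazl, 18 for Slc25a31, 15 for Tex19.1, 12 for Sycp3 and 3 for Nanos3. For Ddx4, 165 of these bases lie inside the annotated gene, and the 85 bases before it hold 3 CGs. Over 27018 promoters the median was 6 CGs, with quartiles of 2 and 16. Ddx4 stood at the 95.1th percentile and Sycp3 at the 66.2th, so 6 members lay above the median promoter. Nanos3 lay at the 29.6th percentile, with an observed-to-expected CpG ratio of 0.151, against 0.639 to 1.00 for the other members. Stk31 had a second entry in the table, with its window at 49395354 to 49395603 and 26 CGs (the 90.8th percentile), and the first entry is used here. The label of CpG-rich promoters thus did not hold for Nanos3 in this window.

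A set of 3 motifs, chosen after the sequences had been seen, was searched on both strands. The E-box CACGTG reads the same on both strands and is the site type of Max pairs. It was present in the 250-base windows of Ddx4, Sycp3, Slc25a31 and Stk31. It occurred in 6.05% of all promoters and in 9.88% of the 9142 promoters with at least 12 CGs. The NRF1-type motif GCATGCGC (GCGCATGC on the other strand), of a factor whose binding is blocked by methylation, was present before Dazl, Tex19.1, Slc25a31 and Stk31. It occurred in 2.32% of all promoters and in 5.27% of those with at least 12 CGs. The E2F-type motif GCGGGAA, read on either strand, was present in the windows of Ddx4 and Sycp3, and occurred in 3.83% and 8.82% of the same promoters. The E-box and the E2F-type match of Ddx4 lay in the 165 bases inside its annotated gene, not before it. Matches to different motifs overlapped in 0 pairs in the members' windows, and none of the motifs was found in the Nanos3 window. A match is a run of letters and was not tested for binding.

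The gene models, on GRCm38, are protein coding. Dazl (chromosome 17, 50279395 to 50293636, minus strand) encodes an RNA-binding protein that promotes translation in germ cells, and Ddx4 (chromosome 13, 112598333 to 112652475, minus strand) encodes the germ cell RNA helicase also called VASA. Nanos3 (chromosome 8, 84173731 to 84185217, minus strand) encodes an RNA-binding protein needed for survival of primordial germ cells. Sycp3 (chromosome 10, 88459569 to 88473236, plus strand) encodes a structural protein of the chromosome axis in meiosis. Tex19.1 (chromosome 11, 121146143 to 121148319, plus strand) encodes a mammalian protein that restrains retrotransposons in germ and pluripotent cells. Stk31 (chromosome 6, 49395604 to 49469501, plus strand) encodes a Tudor domain protein with a kinase-like region that is made in the testis. Slc25a31 (chromosome 3, 40708855 to 40726096, plus strand) encodes the testis form of the mitochondrial ADP/ATP carrier.

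The libraries held 1735810403 UMIs at time 1 and 1843588321 at time 2. After filtering and removal of the highest doublet scores, 23210 and 25483 cells were kept, with medians of 44365.5 and 50386 UMIs. Clusters were named by markers among their leading genes. All 12 pluripotency markers were detected in every cluster, so clusters with no leading marker of another class and a median depth of 0.667 to 1.5 times that of their own library were called pluripotent stem cell-like, and the H19-led cluster had no pluripotency marker among its leading genes. Pluripotent stem cell-like cells were the H19-led, Jam2-led and Gm46332-led clusters, 9196 cells at time 1 and 13878 at time 2. Different clusters held most of them at each time: H19-led 8028 of 9196 at time 1, and Gm46332-led 10906 of 13878 at time 2. A Nanos3-led cluster of 64 and 5443 cells had the germ cell marker Dppa3 among its leading genes. It was left unnamed, as was a Rpgrip1-led cluster of 6029 and 14 cells with no leading marker and a depth ratio of 0.646. Primed epiblast-like cells numbered 6797 and 4907, two-cell-like cells 107 and 57, and fibroblast-like cells, the feeders, 566 and 678. The 2 libraries shared 157 cell barcodes. Levels are given as counts per 1000000 UMIs (CPM) over the summed cells of a class. Shares are cells with at least 1 UMI after each cell was thinned to 10000 UMIs. A ratio was counted as higher or lower at 1.5-fold or more, a size rule and not a test.

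In pluripotent stem cell-like cells all 7 genes were detected at both times, and 1, Sycp3, differed by 1.5-fold or more between them. Among the RNA-binding regulators, Dazl had 8.92 CPM (interval 8.66 to 9.18) at time 1, with 6.59 CPM (6.42 to 6.76) at time 2. Ddx4 was at 8.74 CPM (8.49 to 9.0) and 10.3 CPM (10.1 to 10.5). Nanos3 was at 18.2 CPM and 15.6 CPM. Their log2 ratios were -0.43, 0.23 and -0.22, none past 1.5-fold. The meiotic gene Sycp3 was at 21.4 CPM (21.0 to 21.8) and 11.3 CPM (11.1 to 11.5), a log2 ratio of -0.91. Sycp3 overlaps Chpt1, a phospholipid synthesis gene on the opposite strand, whose level was 36.5 CPM at time 1 and 16.4 CPM at time 2. The treatment of strand in counting is not given in the sources used here, so reads of the pair may not be separable.

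The retrotransposon restraint gene Tex19.1 was at 76.0 CPM and 74.7 CPM, a log2 ratio of -0.03. Its paralog Tex19.2, listed separately in the counts, was at 2.03 CPM and 1.52 CPM. Stk31 was at 16.0 CPM and 11.4 CPM, and Slc25a31 was at 1.85 CPM (1.74 to 1.97) and 1.39 CPM (1.31 to 1.47). These testis-type genes had log2 ratios of -0.49 and -0.39, short of 1.5-fold. With 0 of 7 higher and 1 of 7 lower, the members can be read against all 12278 genes measured, of which 6.75% were higher and 20.0% lower. The median log2 ratio was -0.39 over the members and -0.12 over all genes. Scaled by trimmed means instead, the median of all genes was 0.04 and lower genes made up 53.9% of those past 1.5-fold, against 74.8% with total UMIs. Sycp3 was then at -0.75, and Tex19.1 changed sign, to 0.14. With the Id1-led cluster, which had few primed markers, counted as pluripotent, 3 members were lower: Sycp3 at -0.83, Stk31 at -0.73 and Dazl at -0.69. Among all genes 7.06% were then higher and 17.7% lower.

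Shares of cells moved with the levels. Thinned cells with a Sycp3 UMI made up 17.9% at time 1 and 10.6% at time 2, against 55.5% and 41.8% with every UMI. Tex19.1 was seen in 46.1% and 46.0% of thinned cells, and Ddx4 in 8.13% and 9.89%. For Dazl the share was 6.31% and 4.93% (22.6% and 20.5% with every UMI). Nanos3 was seen in 14.8% and 12.9% of cells, Stk31 in 12.7% and 10.0%, and Slc25a31 in 1.76% and 1.49%. Dazl, Sycp3, Nanos3 and Stk31 were thus seen in a smaller share of cells at time 2 and Ddx4 in a larger one, while the intervals of Slc25a31 and of Tex19.1 overlapped between the times.

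**Figure D1:**
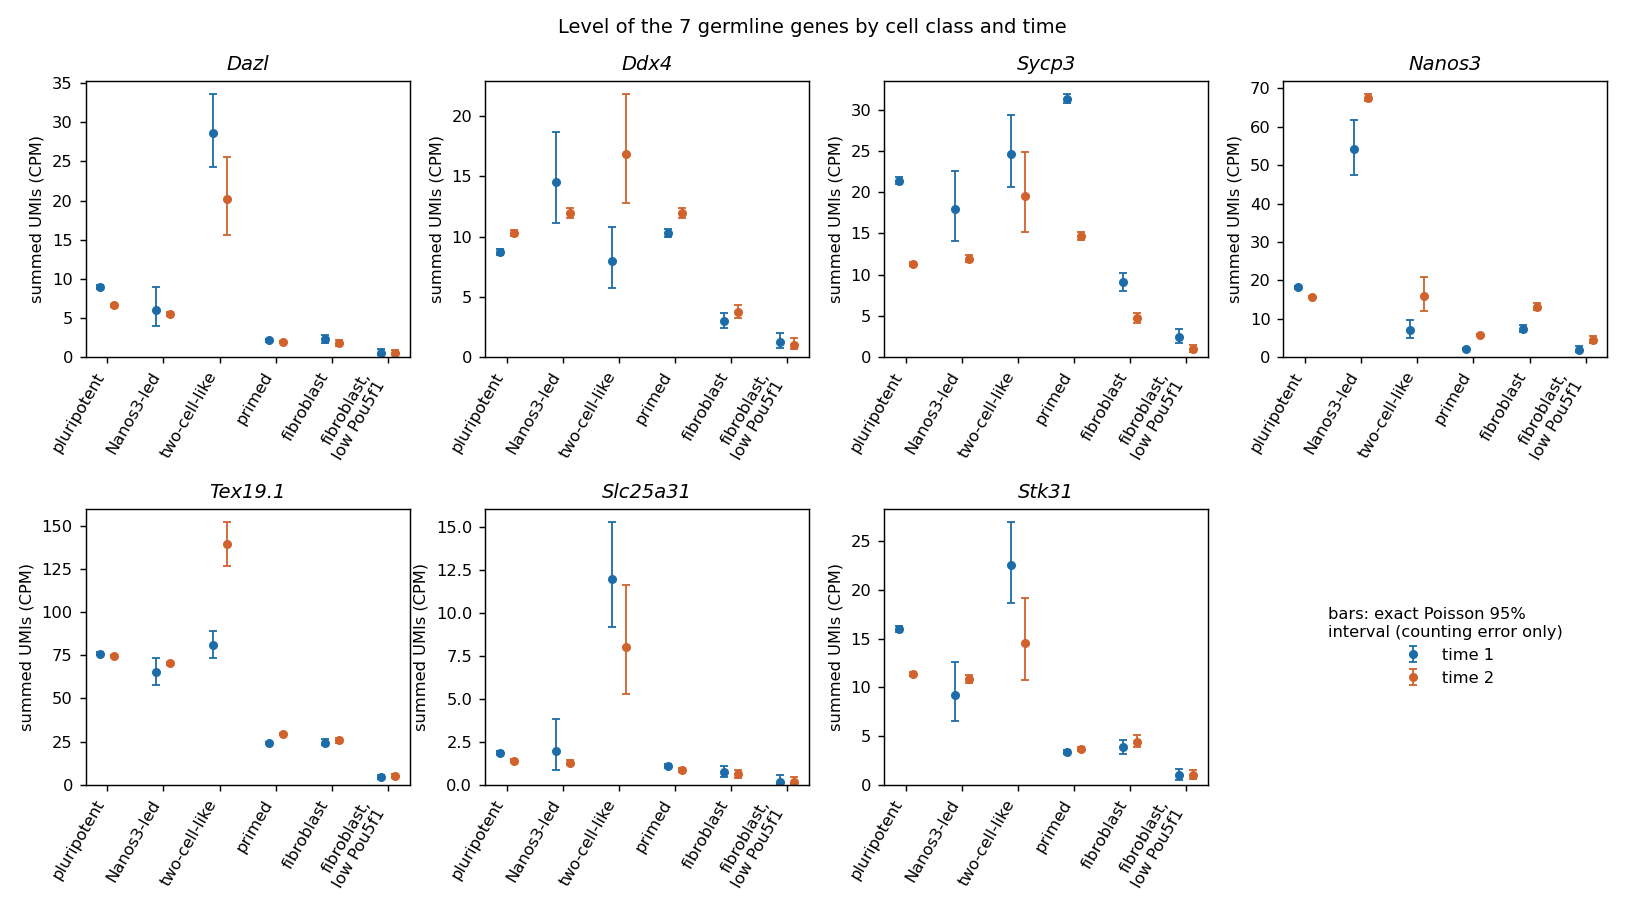
Level of each member (1 panel a gene, summed UMIs in CPM on a linear axis from 0) in 6 cell populations at time 1 (blue) and time 2 (orange), with exact 95% Poisson intervals as bars. Dazl and Slc25a31 are highest in two-cell-like cells among the populations drawn, at 28.7 and 12.0 CPM at time 1, and Nanos3 is highest in the Nanos3-led cluster, at 67.6 CPM at time 2.

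Inside single clusters the difference between the times took other values. In the H19-led cluster none of the 7 was past 1.5-fold, where 3.89% of 12446 genes were higher and 2.96% lower. There Sycp3 was at 22.6 CPM and 26.2 CPM (log2 0.21), and Dazl had a log2 ratio of -0.17. In the Jam2-led cluster none was past 1.5-fold either, where 2.17% of genes were higher and 8.40% lower. Dazl was at 27.7 CPM and 21.3 CPM in that cluster, Stk31 at 29.1 CPM and 20.8 CPM, and Tex19.1 at 94.9 CPM and 110.6 CPM. The Gm46332-led cluster, with 31 cells at time 1, had Dazl at 3.64 CPM, Stk31 at 9.45 CPM and Sycp3 at 10.1 CPM at time 2. Sycp3 was also lower at time 2 over primed epiblast-like cells (log2 -1.09) and in fibroblast-like cells (-0.94). In two-cell-like cells it was at 24.7 CPM (20.6 to 29.3) and 19.5 CPM (15.1 to 24.9), with intervals that overlap. The unnamed Rpgrip1-led cluster held 26.0% of the cells kept at time 1. There it had Dazl at 5.22 CPM, Ddx4 at 8.34 CPM, Sycp3 at 24.6 CPM and Nanos3 at 12.4 CPM. Tex19.1 was at 62.1 CPM in it, Slc25a31 at 1.65 CPM and Stk31 at 9.23 CPM. No setting added this cluster alone to the pluripotent cells. The part of cell composition in the time ratios was not tested.

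**Figure D2:**
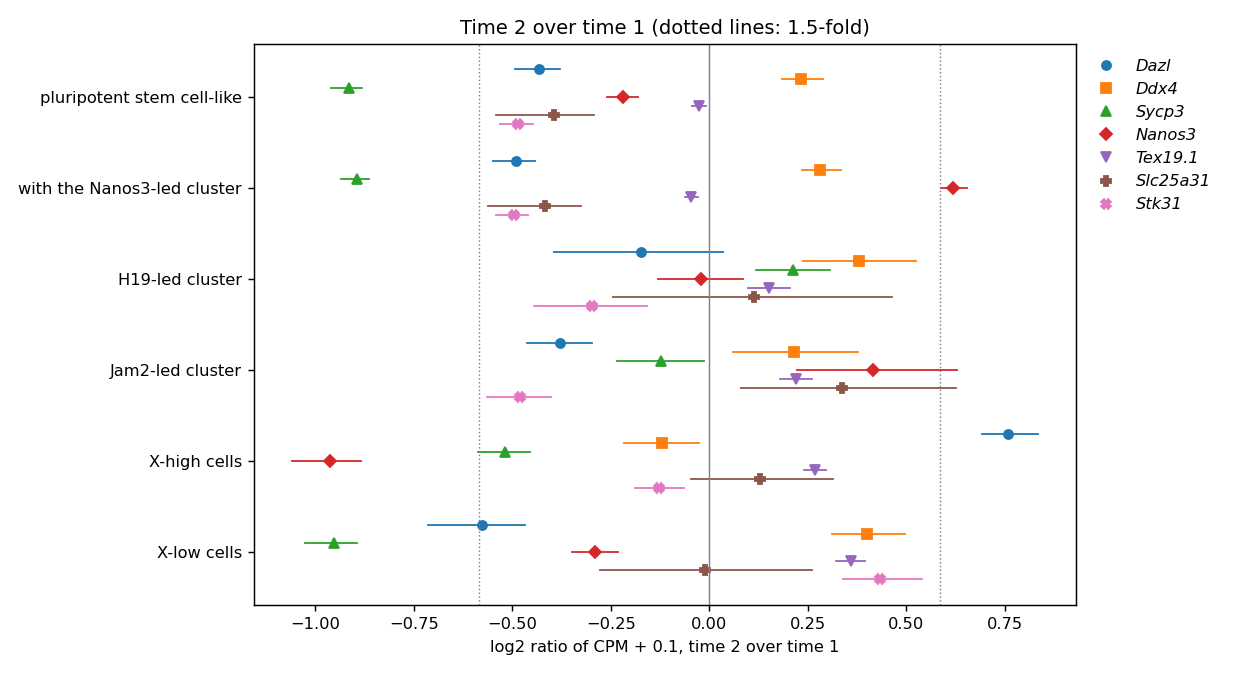
Log2 ratio of CPM plus 0.1, time 2 over time 1, for each member in pluripotent stem cell-like cells, with the Nanos3-led cluster added, and in 4 subsets (2 clusters and the X classes defined further on), with lines for the counting interval and dotted lines at 1.5-fold. Sycp3 is at -0.91 over all these cells and at 0.21 within the H19-led cluster, and Dazl is at 0.76 in X-high and -0.58 in X-low cells.

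Nanos3 depended on whether the unnamed Nanos3-led cluster was counted. In that cluster Nanos3 had 54.3 CPM (47.4 to 61.9) at time 1, with 67.6 CPM (66.6 to 68.6) at time 2, and it was seen in 42.8% of thinned cells at time 2. The members were left out of the genes clustered on, but Nanos3 leads the cluster, so this level is a description. At time 2 none of the other members differed from pluripotent cells by 1.5-fold there, with Dazl at 5.44 CPM, Ddx4 at 12.0 CPM, Sycp3 at 11.9 CPM, Stk31 at 10.9 CPM and Tex19.1 at 70.4 CPM. Of all genes 7.63% were higher and 5.58% lower there at time 2, and 5.06% higher and 12.1% lower at time 1. Among the 64 cells of time 1, Ddx4 was at 14.5 CPM (11.1 to 18.7), above its 8.74 CPM in pluripotent cells, and Stk31 was at 9.21 CPM, below its 16.0 CPM. With these cells added, in a choice made after the clusters were seen, Nanos3 was at 18.5 CPM at time 1 and 28.5 CPM at time 2, a log2 ratio of 0.62. Of the members, 1 was then higher, where 5.91% of all genes were, and 1 lower, where 17.9% were. In the same population without cells that had a called gain, 0 members were higher and 1 lower. The share of all genes was not counted there.

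Two-cell-like cells are a rare state of embryonic stem cell cultures that carries transcripts of the early cleavage embryo. Dazl had 28.7 CPM (24.3 to 33.6) in them at time 1, with 20.1 CPM (15.6 to 25.5) at time 2, log2 ratios over pluripotent cells of 1.67 and 1.6. Slc25a31 was at 12.0 CPM (9.19 to 15.3) and 8.0 CPM (5.27 to 11.6), resting on 63 and 27 UMIs, with log2 ratios of 2.63 and 2.45. At both times these genes were higher there by 1.5-fold or more than in the summed pluripotent cells. The Jam2-led cluster among those cells had Dazl at 27.7 CPM (26.5 to 28.9) and 21.3 CPM (20.5 to 22.1), with intervals that overlap those of two-cell-like cells. Of the other 5, Tex19.1 had log2 ratios of 0.09 and 0.90, Sycp3 0.21 and 0.79, Ddx4 -0.13 and 0.71, and Nanos3 -1.36 and 0.03, each past 1.5-fold at 1 time only. Stk31 had 0.50 (0.23 to 0.76) and 0.35 (-0.09 to 0.75), short of it at both. In counts, 2 members were higher and 1 lower at time 1, where 16.1% of all genes were higher and 10.1% lower. At time 2, 5 were higher and 0 lower, where 17.1% of all genes were higher and 8.13% lower. When two-cell-like cells were taken by marker UMIs instead (212 cells at time 1), the Dazl ratio at time 1 was 0.18 and the Slc25a31 ratio 1.48. At time 2, with 80 such cells, these ratios were 2.0 and 2.34. After thinning, Dazl was seen in 14.2% (9.76 to 19.6) of the 212 cells, against 6.31% of pluripotent cells at time 1. The marker rule used every UMI of a cell, and deep cells weigh more in a summed level. The part of depth in these ratios was not tested. Cells with high X dosage (X-high, by X-linked over autosomal UMIs) made up 58.9% and 43.9% of the two-cell-like cells, and their part in these ratios was not tested.

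Primed epiblast-like cells resemble the epiblast after implantation, the stage at which germline promoters gain methylation in the embryo. Dazl was at 2.10 CPM and 1.87 CPM in them, Nanos3 at 2.06 CPM and 5.72 CPM, and Stk31 at 3.37 CPM and 3.67 CPM. Tex19.1 was at 24.1 CPM and 29.4 CPM, and Slc25a31 at 1.07 CPM and 0.85 CPM. These 5 genes were lower than in pluripotent cells by 1.5-fold or more at each time and none was higher. Of all genes 13.7% were lower and 15.2% higher at time 1, and 11.0% lower and 15.7% higher at time 2. The log2 ratios at time 1 ran from -3.08 for Nanos3 to -0.74 for Slc25a31. Ddx4 and Sycp3 stood apart, with log2 ratios of 0.23 and 0.55 at time 1 and of 0.21 and 0.37 at time 2. Sycp3 was at 31.3 CPM and 14.6 CPM, a lower level at time 2 over the class. Within the primed clusters its time ratios were -0.47 (Sema6a-led) and -0.43 (Id1-led), neither past 1.5-fold. Different clusters held most of the primed cells at each time: Sema6a-led 6708 of 6797 at time 1 and Id1-led 4637 of 4907 at time 2. The Id1-led cluster had 1 primed marker among its leading genes, Sema6a-led 3, and with the members used in clustering an Id1-led cluster of 4083 cells had none, so the name of the time 2 primed cells rests on weak ground. With the Id1-led cluster counted as pluripotent, a choice made after the data were seen, 270 primed cells were left at time 2, with 4 members lower and 1, Sycp3, higher, where 11.2% of all genes were lower and 24.7% higher.

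Fibroblast-like cells are a class that should lack these transcripts. Their Dazl level was 2.26 CPM and 1.76 CPM, Nanos3 7.32 CPM and 13.1 CPM, and Tex19.1 24.4 CPM and 25.7 CPM. Over the members, the fibroblast level was 24.1% to 42.3% of the pluripotent level at time 1 (median 34.2%) and 26.7% to 83.9% at time 2 (median 38.9%). Markers of pluripotency had medians of 32.7% and 37.0% in the same cells. In fibroblast-like cells with at most 1 Pou5f1 UMI, 197 and 358 cells chosen after the data were seen, the members' medians were 8.01% and 8.55% and those of the pluripotency markers 8.14% and 8.65%. By their medians the member transcripts in feeders ran level with those of pluripotency markers, while single genes did not. Nanos3 at time 2 was at 83.9% in all fibroblast-like cells and 28.1% in that subset, and the marker Klf4 was at 105% and 131%. Against pluripotent cells with the Nanos3-led cluster added, the Nanos3 shares were 46.1% and 15.4%.

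Shares in primed and fibroblast-like cells were set side by side. Dazl was seen in 1.5% and 1.69% of thinned primed cells, and in 1.41% and 2.21% of fibroblast-like cells. Nanos3 was seen in 1.74% and 4.22% of primed cells, below the 6.89% and 7.82% of fibroblast-like cells at both times. Stk31 was seen in 2.90% and 3.40% of primed cells, against 4.95% and 3.10%, and Tex19.1 in 17.4% and 21.1%, against 23.3% and 15.2%. Tex19.1 at time 2 was thus above the fibroblast share and Nanos3 below it. Median depths were 47861 and 48919 UMIs in primed cells and 42089.5 and 61793.5 in fibroblast-like cells. A share at or below that of fibroblast-like cells does not show expression in primed cells. The fibroblast share itself was lower in the cells with at most 1 Pou5f1 UMI, with Dazl in 0.508% and 0.559% of cells, Stk31 in 2.54% and 0.559%, Nanos3 in 2.03% and 2.23% and Tex19.1 in 5.08% and 2.79%. Against that subset Tex19.1 at both times and Stk31 at time 2 were higher in primed cells beyond counting error, so whether these shares are background depends on the feeders compared, and the source of the member UMIs in feeders was not tested. Sycp3, at 23.9% and 13.1% of primed cells against 9.89% and 3.83%, and Ddx4, at 8.49% and 10.2% against 4.42% and 3.10%, were above both feeder sets. Barcodes with fewer than 2000 UMIs were a further background. In them Ddx4 was at 9.73 CPM and 12.0 CPM, and Sycp3 at 24.8 CPM and 11.4 CPM. In primed cells Ddx4 was at 10.3 CPM and 12.0 CPM, and Sycp3 at 31.3 CPM and 14.6 CPM. Over the members these barcodes had 44.0% to 116% of the pluripotent level at time 1 and 47.6% to 116% at time 2. Whether the Ddx4 and Sycp3 UMIs of primed cells are background was not tested.

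Because XX stem cells are known for low methylation, the pluripotent cells were split by X dosage. Dosage was X-linked UMIs over autosomal UMIs, set to 1 at the median that Y-positive cells had in that library. X-high cells had a ratio of 1.2 or more and no UMI of the Y genes Ddx3y, Eif2s3y, Kdm5d and Uty. X-low cells had a lower ratio and no such UMI, and they can include XY cells in which no Y transcript was caught. Pluripotent cells were 57.0% X-high at time 1 (5242 cells) and 18.7% at time 2 (2597 cells), so the mix of dosage shifted with passage. Whether X-high cells came from the XX lines or had high X dosage for another reason was not tested, as the tag libraries were not used.

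Dazl was at 11.0 CPM in X-high and 5.35 CPM in X-low cells at time 1, and at 18.7 CPM and 3.55 CPM at time 2, log2 ratios of 1.03 and 2.37. Stk31 was at 21.1 CPM and 6.98 CPM at time 1, and at 19.3 CPM and 9.47 CPM at time 2, ratios of 1.58 and 1.02. Slc25a31 was at 2.27 CPM and 1.06 CPM at time 1, and at 2.49 CPM and 1.05 CPM at time 2, ratios of 1.04 and 1.18. The RNA-binding Dazl and both testis-type genes were thus higher in X-high cells at each time. Tex19.1 shared that direction, at 87.9 CPM and 51.5 CPM at time 1 and at 106 CPM and 66.1 CPM at time 2, ratios of 0.77 and 0.68. Y-positive cells were set by their Y UMIs, with no limit on X dosage. In them Dazl was at 5.23 CPM and 5.23 CPM, Stk31 at 8.92 CPM and 9.90 CPM, and Tex19.1 at 69.7 CPM and 73.7 CPM.

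Sycp3 had X-high over X-low ratios of 0.21 at time 1 and 0.64 at time 2, past 1.5-fold at time 2. Ddx4 had 0.12 and -0.40, past it at neither time. Nanos3 had the other sign, at 16.2 CPM against 21.7 CPM at time 1 and at 8.25 CPM against 17.7 CPM at time 2, ratios of -0.42 and -1.10, the second past 1.5-fold. Inside clusters the Nanos3 direction was not kept, with time 2 ratios of 0.11 in the Gm46332-led and 0.24 in the H19-led cluster. At time 1, 4 members were higher and 0 lower, where 9.74% of 12389 genes were higher and 3.66% lower. At time 2, 5 were higher and 1 lower, where 15.8% of 12090 genes were higher and 5.18% lower. All 7 members are autosomal.

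**Figure D3:**
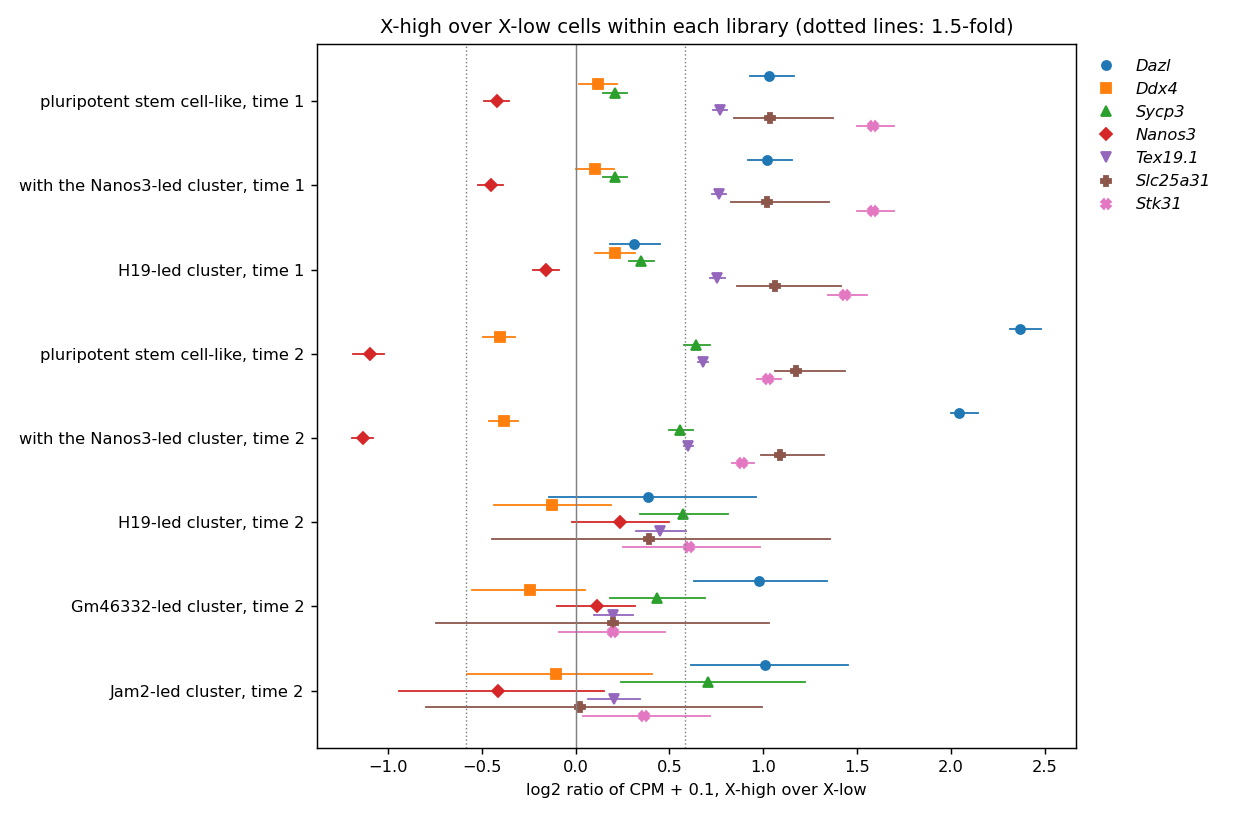
Log2 ratio of CPM plus 0.1, X-high over X-low cells, for each member by population and time, with lines for the counting interval and dotted lines at 1.5-fold. Dazl, Stk31, Slc25a31 and Tex19.1 lie above the upper line over all pluripotent cells at both times, and Nanos3 lies at -0.42 and -1.10. At time 2 fewer members pass the line inside single clusters, where the share of all genes passing it was not counted.

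X dosage and cluster moved together. X-high cells made up 91.2% and 91.6% of the Jam2-led cluster, 52.4% and 57.4% of the H19-led cluster, and 1.27% of the Gm46332-led cluster at time 2. The share of all genes past 1.5-fold inside single clusters was not counted at either time, so the members' calls there cannot be set against it. Within the H19-led cluster at time 1, Stk31 (1.44), Slc25a31 (1.06) and Tex19.1 (0.76) were past 1.5-fold, and Dazl, at 0.31, was not. At time 2 the H19-led cluster had Stk31 alone past it (0.61), the Gm46332-led cluster Dazl alone (0.98, with 138 X-high cells), and the Jam2-led cluster Dazl (1.01) and Sycp3 (0.70, with 97 X-low cells). At time 2 the Dazl ratio over all pluripotent cells, 2.37, was thus larger than within any of these 3 clusters. The split also moved members in fibroblast-like cells. There 5 of 6 measured members were higher in X-high cells at time 1, with 0 lower (median log2 1.27, 201 and 158 cells). At time 2, 0 of 6 were higher and 4 lower (median -0.89, 257 and 201 cells). The source of these feeder values was not tested.

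Within each dosage class the change with passage took other values. In X-high cells Dazl was 11.0 CPM at time 1 and 18.7 CPM at time 2 (log2 0.76), and Nanos3 16.2 CPM and 8.25 CPM (-0.96). Of the members 1 was higher and 1 lower, where 6.35% of all genes were higher and 13.0% lower. In X-low cells Dazl was 5.35 CPM and 3.55 CPM (-0.58), Stk31 6.98 CPM and 9.47 CPM (0.43), and Sycp3 19.4 CPM and 9.97 CPM (-0.95). None of the members was higher there and 1 was lower, where 7.29% of all genes were higher and 19.3% lower. With the Nanos3-led cluster added, the Nanos3 ratios were -0.15 in X-high and 0.53 in X-low cells. The Jam2-led cluster, with Dazl above 20 CPM at both times, held 19.8% of the X-high pluripotent cells at time 1 and 77.6% at time 2.

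Members were also described in cells with and without a gain of their own chromosome. A gain was called in a single cell where the summed expression of a chromosome was at least 1.3 times its usual share, so higher levels of that chromosome's genes are fixed by the call and are given only as a description. Gains were called in pluripotent and Nanos3-led cells together. For Nanos3 and chromosome 8, cells with the gain had 29.8 CPM (731 cells) against 17.6 CPM without it at time 1, and 36.8 CPM (8923 cells) against 21.9 CPM at time 2. The log2 ratios were 0.76 and 0.74, where the median gene of chromosome 8 had 0.49 and 0.22. Within single clusters at time 2 the levels were 71.8 CPM against 61.3 CPM in the Nanos3-led cluster, 18.9 CPM against 16.3 CPM in the Gm46332-led cluster, 23.0 CPM against 19.8 CPM in the H19-led cluster and 13.3 CPM (63 cells) against 4.93 CPM in the Jam2-led cluster. For Tex19.1 and chromosome 11, cells with the gain had 179 CPM (122 cells) against 74.4 CPM at time 1 and 158 CPM (391 cells) against 71.9 CPM at time 2. Its log2 ratios were 1.26 and 1.14, with 0.53 for the median gene of that chromosome at both times. Ddx4 on chromosome 13 had 21.3 CPM in 60 gained cells at time 2 against 10.7 CPM, and Stk31 on chromosome 6 had 19.07 CPM in 150 gained cells against 11.2 CPM. With gains called at 1.2 times, Dazl had log2 ratios of -0.15 (-0.79 to 0.43) and 1.36 (0.93 to 1.78), and Slc25a31 1.07 and 1.97. At that threshold Ddx4 had -0.02 and 0.41 and Stk31 0.09 and 0.65.

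**Figure D4:**
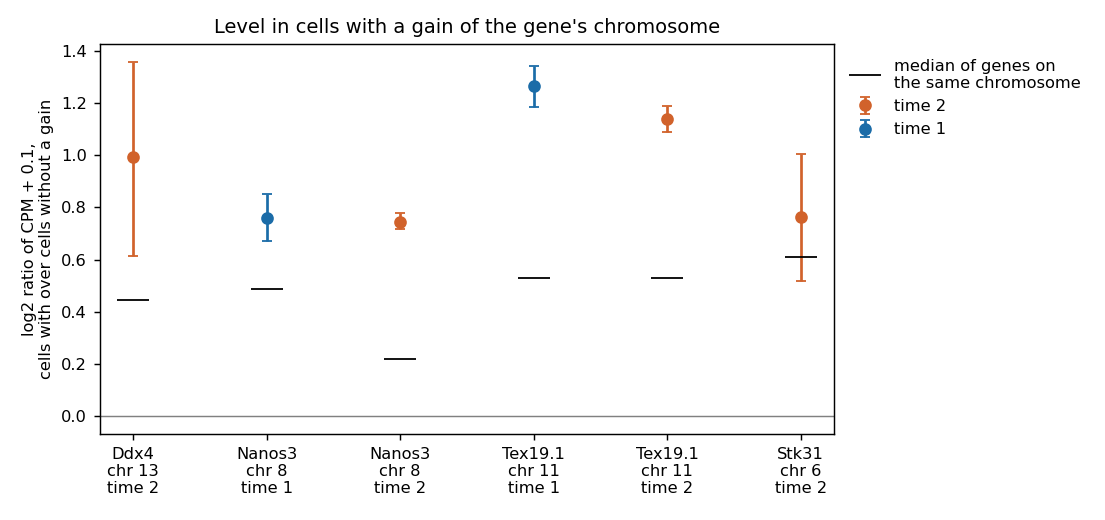
Log2 ratio of CPM plus 0.1 in cells with over cells without a called gain of the gene's chromosome, for members with at least 50 gained cells, with counting intervals as bars and the median of all genes of that chromosome as black dashes. Tex19.1 lies at 1.26 and 1.14, above the chromosome 11 median of 0.53, and the interval of Stk31 spans the chromosome 6 median of 0.61.

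Members were seen together in single cells in some pairs more often than the product of their shares. In pluripotent and Nanos3-led cells, Dazl and Slc25a31 were found together in 1.66 and 2.06 times the product (17 and 29 cells). Dazl and Stk31 were found together in 1.35 and 1.40 times the product (100 and 131 cells), and Slc25a31 and Stk31 in 1.45 and 1.48 times (30 and 41 cells). Within X-high cells alone, Dazl and Slc25a31 were at 1.66 and 1.59 times the product, and Slc25a31 and Stk31 at 1.46 and 1.69 times. Dazl and Stk31 were nearer the product there, at 1.26 and 1.22 times (78 and 65 cells). Within X-low cells Dazl and Slc25a31 were at 1.68 and 1.73 times (3 and 10 cells), and Dazl and Stk31 at 1.56 and 1.198 times (14 and 53 cells). Slc25a31 and Stk31 were below the product in X-low cells, at 0.832 and 0.885 (2 and 12 cells). In the Jam2-led cluster Dazl and Stk31 were at 1.16 and 1.15 times (45 and 61 cells). Slc25a31 and Stk31 were at 0.850 and 1.61 times there (5 and 19 cells). The ratios of Dazl and Slc25a31 in that cluster were 1.76 and 1.64 (8 and 16 cells). Over all pluripotent and Nanos3-led cells, Dazl and Ddx4 were at 1.42 times at time 1 and 1.02 at time 2. Nanos3 and Slc25a31 were below the product, at 0.660 and 0.776. Thinned cells with none of the 7 genes made up 28.4% and 30.2%, and cells with 1 of them 42.9% and 42.4%. The most in 1 cell was 5 members at time 1 and 6 at time 2. Over thinned cells the variance of Dazl was 2.00 and 1.52 times its mean, with up to 13 UMIs in 1 cell, and that of Ddx4 was 1.08 and 1.09 times.

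The other germline genes were taken from lists by function. Of the list of further promoter-methylated germline genes, 18 of 28 were measured, and 2 were higher and 11 lower at time 2, with a median log2 ratio of -0.82, against 6.75% higher and 20.0% lower among all genes. The lower genes included Fthl17a, an X-linked ferritin-like gene, at 7.27 CPM and 1.05 CPM, and Ldhc, the testis lactate dehydrogenase, at 3.29 CPM and 1.07 CPM. Zfp57, an imprint-protecting zinc finger gene, was 1 of the 2 higher, at 33.6 CPM and 66.2 CPM. Genes were listed by name, and whether each is limited to the germline or silenced by promoter methylation was not tested here. The list also held Slc25a4, at 366 CPM and 324 CPM, and Mov10, at 24.9 CPM and 26.3 CPM, so its counts are not counts of germline-limited genes. On autosomes alone 2 of 12 were higher and 6 lower, and the X-high share of cells was lower at time 2. In X-high over X-low cells 11 of 18 of these genes were higher at time 1 and 13 of 17 at time 2, with none lower, where 9.74% and 15.8% of all genes were higher. On autosomes those counts were 5 of 12 and 7 of 11.

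Germ cell RNA and fate regulators were measured for 11 of 15, with 0 higher and 5 lower at time 2 (median -0.44), where 6.75% of all genes were higher and 20.0% lower. Dppa3, a maternal factor that protects against methylation changes, was at 341 CPM and 116 CPM (log2 -1.55), and Prdm1, a germ cell specification factor, at 23.5 CPM and 9.04 CPM. Dppa3 is a leading gene of the Nanos3-led cluster, and with that cluster added its log2 ratio was -0.82. Of the meiosis and synapsis genes 22 of 34 were measured, with 1 higher and 4 lower (median -0.09). Smc1b, a meiotic cohesin, was at 54.0 CPM and 21.2 CPM, and Syce1, of the synaptonemal complex, at 10.2 CPM and 16.2 CPM. Smc1b was higher in X-high than X-low cells, by log2 ratios of 1.5 and 2.51. Of the 23 meiosis genes measured there, 8 were higher and 1 lower at time 1, and 9 higher and 4 lower at time 2. Of the piRNA and transposon defence genes 12 of 18 were measured, with 2 higher and 3 lower (median -0.21). The lower counts of these meiosis and piRNA lists lay near the 20.0% of all genes. Fkbp6, a cochaperone of that pathway, was at 13.9 CPM and 7.20 CPM, and was higher in X-high cells by 1.94 and 2.32. Of the piRNA genes 5 of 11 were higher in X-high cells and 1 lower at time 1, and 4 of 12 higher and 2 lower at time 2. Among all genes 9.74% were higher and 3.66% lower in X-high cells at time 1, and 15.8% higher and 5.18% lower at time 2.

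All 19 genes of the PRC1.6 and heterochromatin list were measured, with 1 higher and 1 lower at time 2. The list had a median log2 ratio of 0.26, against -0.12 over all genes, of which 6.75% were higher and 20.0% lower. With trimmed-mean scaling 5 genes of the list were higher, where 12.0% of all genes were higher and 14.1% lower. With total UMIs the gene counted as higher was Zfp42, at 70.2 CPM and 137 CPM. It is a pluripotency-associated zinc finger gene and was also among the pluripotency markers used here. Yaf2, which binds the RING subunits, had a log2 ratio of -0.78, and Max a ratio of -0.22. Of 9 DNA methylation genes 1 was higher and 1 lower, against the same shares of 6.75% and 20.0% over all genes, with a median of 0.08. The higher gene was Tet2, a methylcytosine oxidase, at 19.3 CPM and 38.1 CPM, and the lower was Tet3 of the same family, with a ratio of -0.80. Dnmt3l, the cofactor of new methylation, was at 207 CPM and 143 CPM. Dnmt3a, a writer of new methylation, had a time ratio of 0.50 and X-high over X-low ratios of -0.29 and -1.10. In X-high over X-low cells 1 of the 9 genes was higher and 1 lower at each time. Among all genes 9.74% were higher and 3.66% lower at time 1, and 15.8% higher and 5.18% lower at time 2. The higher gene was Tet3 (1.13 and 1.34), and the lower was Dnmt3b at time 1 (-0.65) and Dnmt3a at time 2.

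Likeness was measured as the Pearson correlation of log2 CPM over 22 profiles, each 1 cluster in 1 library, among 9504 genes. Profiles of 1 library share its depth and free RNA, so the values are descriptions. Among the members, Tex19.1 and Stk31 were most alike at 0.94, and Dazl had 0.89 with Stk31 and 0.86 with Slc25a31. Nanos3 had 0.12 to 0.51 with the other members. The genes most like Nanos3 were Mt4 and Cox4i1, both at 0.95 and both on chromosome 8. The gene most like Dazl was Sycp1, of the synaptonemal complex, at 0.93. The genes most like Tex19.1, Slc25a31 and Stk31 were Rpl10l at 0.95, Fam221a at 0.95 and Gm49504 at 0.96. Sycp3 was most like Grhl2 at 0.88, and Ddx4 most like Gab1.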

How the data were processed

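Counting was done before deposit with Cell Ranger 6.1.2 after bcl2fastq 2.20.0.422 on mm10, per the submitters' processing notes, and the deposited values are UMI counts, whole numbers for each gene in each barcode, not normalised. The files held 145288 barcodes at time 1 and 52242 at time 2. Cells had at least 18315 (time 1) or 18646 (time 2) UMIs, which is 0.1 times the 99th percentile of the 20000 largest barcodes, and also 1000 genes or more and no more than 10% of UMIs from mitochondrial genes.

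Scrublet's own threshold marked no cell at time 1, so the 10% of cells with the highest doublet scores were removed in each library (2526 and 2766 cells). Cells of both libraries were clustered on 2000 variable autosomal genes without the members and germline lists, 30 components, 15 neighbours and Leiden resolution 0.5. Clusters were named from listed markers. The members, lists and markers were chosen with earlier results of these data known, and nothing here is independent support for them.

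UMIs were summed per class and scaled to CPM. Ratios used a pseudocount of 0.1 CPM over genes with a mean of at least 1 CPM, and cells were thinned to 10000 UMIs for shares. A cell counted as Y-positive from 2 Y UMIs, and cells with 1 were left out of the X classes. Named genes were the members, the 2 highest and lowest ratios of a list of which some are given, and the 2 most alike by correlation. Chromosomes came from GENCODE M21 and promoters from RefSeq (GRCm38.p6).

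Poisson and Clopper-Pearson intervals at 95% gave counting error. The ratio and fold rule were tested on simulated data for the time comparison with 12429 genes, where 50 of 50 genes raised 2-fold and 48 of 50 lowered 2-fold were called and 0 of 12233 unchanged ones. The simulation held counting noise only, with no difference between libraries or in cell composition. It therefore gives no rate of false calls for the real libraries. Alternatives changed scaling (edgeR 4.0.16), pseudocount, minimum level, cell population, X threshold and clustering. Analyses ran in Python 3.11.15 with scanpy 1.11.5, igraph 0.11.9, pandas 2.3.3, numpy 2.4.6 and scipy 1.17.1, and in R 4.3.3.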

Additional observations from a re-analysis of the deposited data

Results flagged for a closer look

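Some members had ratios of opposite sign in paired groups, each with a counting interval that did not reach 0, and none of these differences was tested because each group came from 1 library. The RNA helicase gene Ddx4 had an X-high over X-low log2 ratio of 0.12 (0.02 to 0.22) at time 1 and -0.40 (-0.49 to -0.32) at time 2. Dazl had a time 2 over time 1 ratio of 0.76 in X-high cells and -0.58 in X-low cells. Ddx4 went the other way, with -0.12 in X-high cells and 0.40 in X-low cells. Stk31 had the same signs as Ddx4, at -0.13 in X-high and 0.43 in X-low cells. Different clusters held most X-high and X-low cells at each time, and the part of that in these values was not tested.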

How the results depend on the processing

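No paired analysis was possible because each time had 1 library. Over all alternatives, 104 counts kept within 1.5 times the reported count and 29 moved. Single-gene values were labelled as kept 166 times and as moved 191 times, and a value past 1.5-fold changed sign 3 times. Kept meant within the counting interval of the main value or, for shares of cells, within a fixed margin of its log2 ratio. A change of sign was not labelled as kept, except for small ratios by chromosome gain. Over 19 settings the log2 time ratio of Sycp3 ran from -1.07 to 0.21, negative in 18 and reversed at 0.21 within the H19-led cluster, that of Dazl from -0.69 to 0.76, negative in 17, and that of Nanos3 from -0.96 to 1.0, negative in 14. Ddx4 was negative in 2, Slc25a31 in 15, Stk31 in 18 and Tex19.1 in 10. Members higher at time 2 went from 0 to 1 over all filtered cells, over cells taken by marker UMIs, in X-high cells, in cells with no called gain and, separately, with the Nanos3-led cluster. Shares of all genes were not counted over all filtered cells, by marker UMIs, with no called gain or with members in clustering. Members lower went from 1 to 0 within the H19-led and within the Jam2-led cluster, to 2 in cells with no called gain and when the members were used in clustering, and to 3 with the Id1-led cluster counted as pluripotent, which also took members higher in primed cells at time 2 from 0 to 1. By marker UMIs at time 1, two-cell-like cells had 1 member higher, not 2, and 2 lower, not 1. With the Nanos3-led cluster, two-cell-like cells at time 2 had 1 lower, not 0. X-high over X-low at time 2 gave 5 higher and 1 lower, against 1 and 0 within the Gm46332-led, H19-led and Nanos3-led clusters and 2 and 0 within the Jam2-led cluster. The shares of all genes inside these clusters were not counted. Nanos3 reversed from -1.10 to 0.11 within the Gm46332-led and 0.24 within the H19-led cluster. With trimmed-mean scaling, higher genes went from 0 to 1 for germ cell RNA regulators, from 1 to 5 for the PRC1.6 and heterochromatin list and from 1 to 2 for DNA methylation genes. Without a minimum level, lower meiosis genes went from 4 to 10. At 5 CPM, higher piRNA genes went from 2 to 1, lower promoter-methylated genes from 11 to 4 and lower DNA methylation genes from 1 to 0. Without a minimum, genes with a mean below 1 CPM were counted too. Shares of all genes were not counted without a minimum or at 5 CPM. Causes were not tested, except that a higher minimum leaves fewer genes. Time ratios within clusters, the Nanos3-led population, the Id1-led cluster as pluripotent, the low-Pou5f1 feeders and the cells without shared barcodes were alternatives chosen after seeing the data. Slc25a31 in two-cell-like cells is limited by the number of cells (107 and 57) and of its UMIs (63 and 27).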
